A study of Arabidopsis thaliana with 30 samples.

Results

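QQS (AT3G30720, QUA-QUINE STARCH) was followed across wild-type and pifq Arabidopsis seedlings through its single probe set, 1 of the 22746 tested. The wild type was the Columbia ecotype, and pifq is a quadruple mutant in PIF1, PIF3, PIF4 and PIF5, transcription factor genes that act below the phytochrome light receptors. Whole seedlings of both genotypes were grown without sucrose under white light (19 µmol/m2/s, R/FR 6.48, the ratio of red to far-red). WL0 seedlings were harvested after 2 days, WL24 seedlings stayed in the same light for 24 h more, and FR1, FR3 and FR24 seedlings received added far-red light (R/FR 0.006) for 1 h, 3 h and 24 h. Each of the 10 groups held 3 arrays of separately grown replicates, 30 arrays in all, and their number limits the precision. QQS was chosen by its measured levels in all 10 groups, so its levels and differences are given as a description, with no test.

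QQS is an orphan gene of Arabidopsis thaliana, meaning that no gene of recognisably similar sequence is known in other species. It encodes a very short protein with no known domain, and was named for the excess leaf starch of seedlings in which its transcript is reduced. The protein binds NF-YC4, a subunit of the nuclear factor Y transcription factors, and raising QQS shifts plants from starch towards protein. Its transcript level is known to vary between natural accessions and laboratory lines together with DNA methylation at the start of the gene.

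Levels are log2 RMA signals, in which 1 unit is a 2-fold change, given as mean ± SD of 3 arrays. Differences are log2 differences ± SE from a limma fit to all 30 arrays.

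QQS was higher in pifq than in the wild type in every light condition, by 21.5-fold to 28.6-fold. In 2-day white-light seedlings the 3 wild-type arrays read 7.01, 6.83 and 6.46, and the 3 pifq arrays 11.63, 11.59 and 11.60. The pifq mean of 11.61 ± 0.02 stood 4.84 ± 0.10 above the wild-type mean of 6.77 ± 0.28, a 28.6-fold difference. The wild-type WL0 group had the widest spread of the 10 groups, with replicate 3 lowest, and no wild-type array came near any pifq array.

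After 1 h of far-red light the wild-type arrays read 7.20, 7.15 and 7.08, and the pifq arrays 11.73, 11.85 and 11.68. After 3 h they read 7.13, 7.43 and 7.19 in the wild type and 11.86, 11.99 and 12.05 in pifq. The genotype difference was 4.61 ± 0.10 at 1 h (24.5-fold) and 4.72 ± 0.10 at 3 h (26.3-fold). The pifq arrays lay above the wild-type arrays with no overlap in all 5 conditions, a separation that 9.76% of all probe sets had in WL0, 15.3% in FR1, 13.8% in FR3, 11.7% in FR24 and 11.1% in WL24. Within each genotype the 1 h and 3 h values lay close together beside the gap between the genotypes.

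At 24 h of far-red light QQS read 7.58, 7.54 and 7.51 on the wild-type arrays and 11.93, 12.06 and 12.03 on the pifq arrays. In the white-light seedlings of the same age it read 7.54, 7.67 and 7.82 in the wild type and 12.08, 12.25 and 11.97 in pifq. The genotype difference was 4.46 ± 0.10 in FR24 (22-fold) and 4.42 ± 0.10 in WL24 (21.5-fold). These were the smallest of the 5 genotype differences, and WL0 gave the largest.

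**Figure D1:**
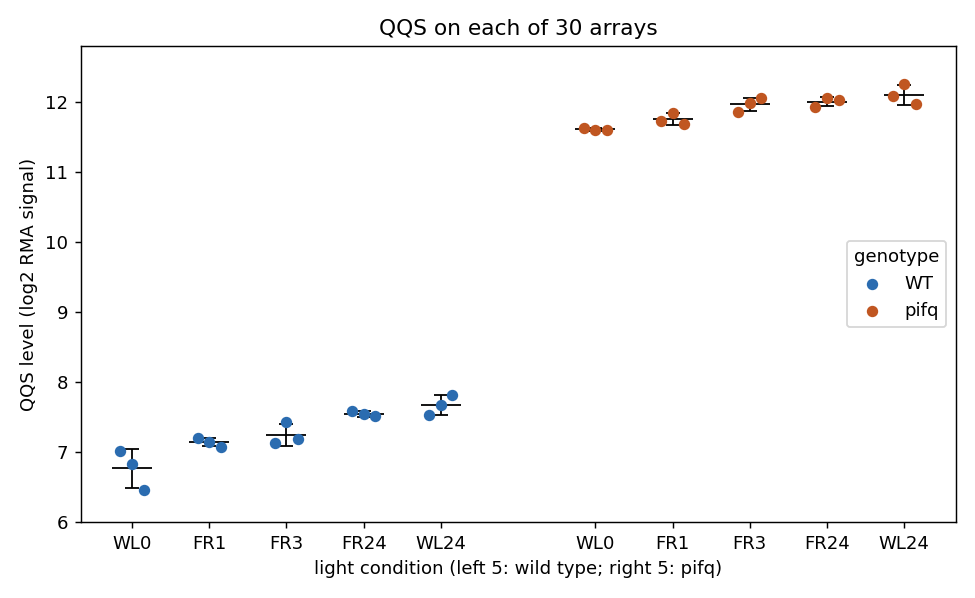
QQS level (log2 RMA signal) on each of the 30 arrays, by light condition, with wild-type groups on the left and pifq groups on the right. Points are arrays, horizontal bars group means and error bars the SD of 3 arrays. All wild-type arrays lie between 6.46 and 7.82 and all pifq arrays between 11.59 and 12.25.

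Over the 15 arrays of each genotype, QQS averaged 7.28 in the wild type and 11.89 in pifq, a difference of 4.61 or 24.4-fold. The lowest pifq array lay 3.77 above the highest wild-type array. QQS was 1 of 36 probe sets (0.158% of those tested) whose 15 pifq arrays all lay above the 15 wild-type arrays, and it had the widest such gap. A further 5 probe sets (0.022%) were separated in the other direction.

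Ranked by absolute genotype difference, QQS was first of the 22746 probe sets in WL0 and FR1 and second in FR3, FR24 and WL24. The probe set ahead of it in those 3 conditions has no name in the annotation used here and was lower in pifq, by 4.78, 4.94 and 4.44. Among probe sets higher in pifq, QQS was first in all 5 conditions. The next highest difference in that direction was 3.05 in WL0, 2.06 in FR1, 1.92 in FR3, 2.81 in FR24 and 1.88 in WL24. The median absolute difference over all probe sets was between 0.08 and 0.11 in these comparisons, so the typical probe set differed little between the genotypes. At a limma adjusted p under 0.05, 1.24% to 7.08% of all probe sets were higher in pifq and 0.431% to 6.56% lower. With 1 line per genotype, the mutations, the genetic background and the seed stock cannot be told apart as sources of the QQS difference. In whole seedlings, more cells that express a gene and more transcript per cell cannot be told apart either.

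**Figure D2:**
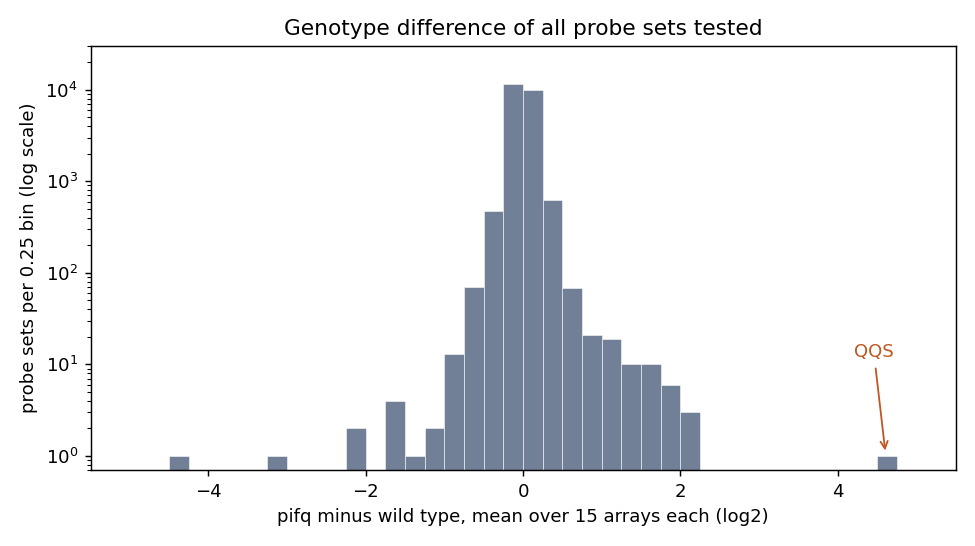
Number of probe sets (log scale) by their difference between pifq and the wild type, averaged over 15 arrays of each genotype (log2, bins of 0.25). QQS stands alone on the right at 4.61, and only 4 of the 22746 probe sets, QQS among them, are more than 2 higher in pifq.

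Genotype took up 98.5% of the sum of squares of QQS over the 30 arrays, light condition 1.14%, the combination of genotype and condition 0.113%, and replicates within groups 0.213%. Its replicate SD, pooled over groups, was 0.13, near the median of 0.12 over all probe sets.

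Within each genotype QQS was lowest in WL0 and highest in WL24, and the 5 conditions stood in the same order in both, WL0, FR1, FR3, FR24 and WL24. Light condition took up 85.4% of the sum of squares within the wild type and also 85.4% within pifq. From WL0 to FR1 the mean changed from 6.77 ± 0.28 to 7.14 ± 0.06 in the wild type and from 11.61 ± 0.02 to 11.75 ± 0.09 in pifq. In both genotypes the FR1 arrays lay above the WL0 arrays with no overlap, as they did for 15.7% of all probe sets in the wild type and 11.3% in pifq. FR3 stood at 7.25 ± 0.16 and 11.97 ± 0.10, FR24 at 7.55 ± 0.04 and 12.01 ± 0.07, and WL24 at 7.68 ± 0.14 and 12.10 ± 0.14. Neighbours in this order that overlapped were FR1 and FR3 in the wild type, FR3 and FR24 in pifq, and FR24 and WL24 in both.

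Relative to WL0, QQS was higher by 0.37 ± 0.10 at 1 h and 0.48 ± 0.10 at 3 h of far-red light in the wild type, and by 0.15 ± 0.10 and 0.36 ± 0.10 in pifq. These 4 differences share their WL0 arrays within a genotype, and the far-red seedlings were also 1 h or 3 h older than WL0. Elapsed time and far-red light therefore cannot be told apart at 1 h and 3 h. The wild-type value at 1 h moved with the WL0 arrays, being 0.22 without WT WL0 replicate 3 and 0.50 without replicate 1. At 3 h the FR arrays did not overlap WL0 in either genotype, as for 23.3% of probe sets in the wild type and 21.8% in pifq.

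The comparison with a control of equal age gave a small difference of the opposite sign. FR24 stood below WL24 by 0.13 ± 0.10 in the wild type and by 0.09 ± 0.10 in pifq, and the arrays overlapped in both genotypes. The difference remained below 0 without any 1 of the 6 arrays. It ran from -0.20 to -0.06 in the wild type and from -0.16 to -0.02 in pifq. These subsets share their arrays, and each full difference was about the size of its SE, so the sign is not settled. In size the difference ranked 11359 of 22746 probe sets in the wild type and 13757 in pifq, close to the middle of the array.

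The larger change of QQS was between white-light seedlings of different age. WL24 exceeded WL0 by 0.91 ± 0.10 in the wild type (1.88-fold) and by 0.49 ± 0.10 in pifq (1.41-fold). The arrays did not overlap in either genotype, which held for 27.9% and 28.8% of all probe sets in the same direction. Much of the array moved between these ages, and in size the QQS difference ranked 2251 in the wild type and 5559 in pifq.

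**Figure D3:**
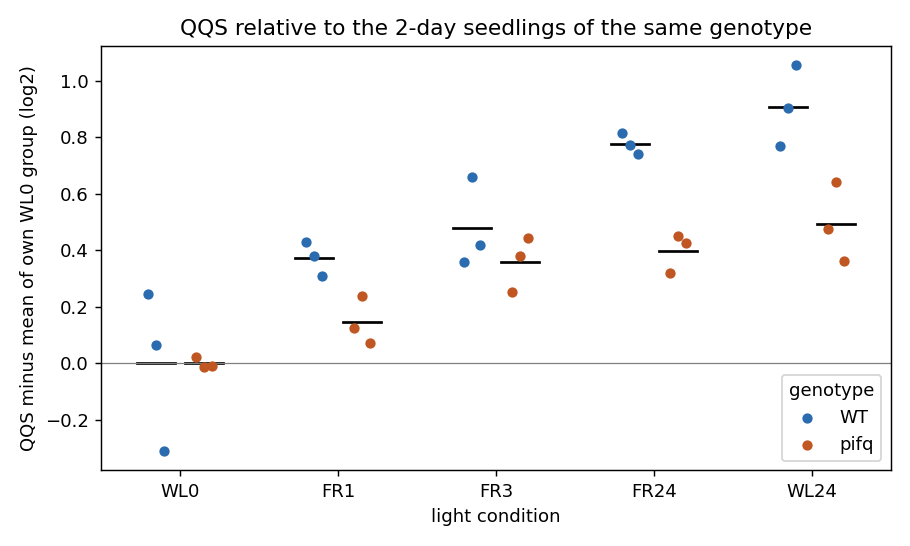
QQS on each array minus the mean of the WL0 group of the same genotype (log2), by light condition. Points are arrays and black lines are group means. WL24 lies 0.91 above WL0 in the wild type and 0.49 in pifq, and wild-type WL0 replicate 3 lies lowest.

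The log2 change was smaller in pifq than in the wild type by 0.23 ± 0.15 at FR1, by 0.12 ± 0.15 at FR3 and by 0.42 ± 0.15 from WL0 to WL24, and the 24 h far-red change differed by 0.04 ± 0.15. The first 3 share the WL0 arrays. Without WT WL0 replicate 3 they became -0.072, 0.04 and -0.26 (pifq minus wild type), so that array sets much of their size and the sign at 3 h. On the linear scale the order is the other way round, since QQS went from 109 to 204.7 signal units between WL0 and WL24 in the wild type and from 3119 to 4391 in pifq.

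The named probe sets with a pattern most like that of QQS over the 30 arrays were LEA (AT2G21490, r = 0.958), ATOEP16-2 (AT4G16160, 0.957), AT1G65090 (0.943), PAP85 (AT3G22640, 0.942) and AT3G19920 (0.939). LEA encodes a late embryogenesis abundant protein, a family made as seeds dry, PAP85 a vicilin-like seed storage protein and ATOEP16-2 a protein of the plastid outer envelope. All 5 were higher in pifq, LEA by 1.99, ATOEP16-2 by 1.90, PAP85 by 1.90, AT1G65090 by 1.34 and AT3G19920 by 1.09, against 4.61 for QQS. Arrays share their genotype, group and normalization, so these correlations describe the separate levels of the genotypes rather than 30 independent points. Within the 15 wild-type arrays r with QQS was 0.50 for LEA, 0.49 for ATOEP16-2 and AT3G19920, 0.25 for PAP85 and -0.048 for AT1G65090. Within the 15 pifq arrays it was -0.076 for LEA, -0.12 for ATOEP16-2 and PAP85, 0.11 for AT1G65090 and -0.77 for AT3G19920. For these 5 the likeness thus lay in the genotype difference, and within pifq their highest r with QQS was 0.11. The part of seed-stage transcripts in the QQS difference was not tested.

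**Figure D4:**
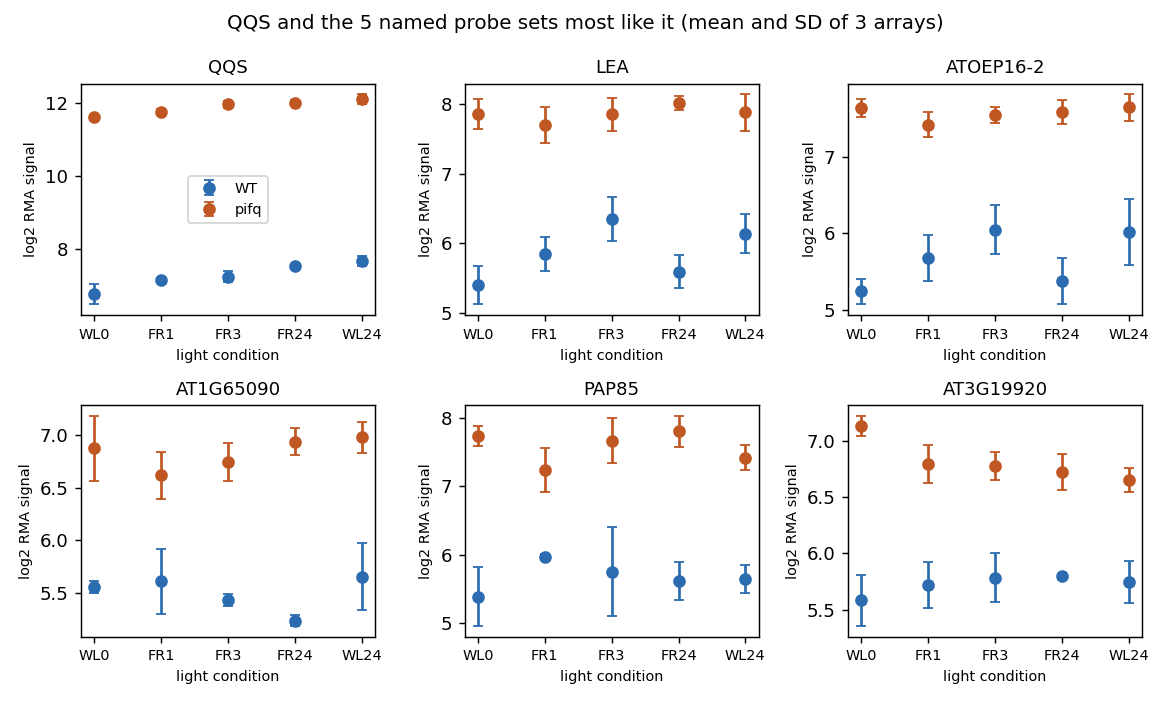
Group means with SD of 3 arrays (log2 RMA signal) of QQS and the 5 named probe sets of highest correlation with it over 30 arrays, by light condition and genotype. All 6 separate the genotypes, with r of 0.939 to 0.958 to QQS, and only QQS is lowest in WL0 and highest in WL24 in both genotypes.

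The named probe sets least like QQS were NRPB9A (AT3G16980), which encodes a subunit of RNA polymerase II (r = -0.883), AT1G12070 (-0.717) and AT3G49210 (-0.696). They were lower in pifq by -0.61, -0.52 and -0.27 on average.

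Because QQS is named for starch, genes of starch synthesis and breakdown were read beside it. Of 42 listed, 8 had a probe set of their own in the annotation used here. These were APL3 and APL4, for large subunits of ADP-glucose pyrophosphorylase, SBE2.2, for a branching enzyme, PTST1 and PTST2, for proteins that help target starch synthesis, PWD, for phosphoglucan water dikinase, AMY1, for an alpha-amylase, and DPE1, for disproportionating enzyme. Group means lay between 3.15 and 3.35 for APL4, 3.255 and 3.44 for AMY1, and 3.31 and 4.585 for APL3. These are low beside array medians of 5.55 to 5.64 and a lowest value of 2.42. The values of APL4 and AMY1 thus say little about expression, and those of APL3 call for caution. A gene was called at a limma p under 0.05 after Benjamini-Hochberg adjustment over all probe sets.

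Between the genotypes, where QQS differed by 4.42 to 4.84, none of these 8 starch genes differed by more than 0.58. In WL0, 1 of 8 was called higher in pifq and 0 lower, against 1.24% and 0.431% of all probe sets, and it was PWD (0.31 ± 0.07). PWD was also the single gene called in FR1 (0.58 ± 0.07), FR3 (0.26 ± 0.07) and WL24 (0.30 ± 0.07), where 7.08%, 5.47% and 4.3% of probe sets were called higher and 6.56%, 4.47% and 4.3% lower. The PWD call in WL0 was lost when WT WL0 replicate 1 or 3 or pifq WL0 replicate 2 or 3 was left out (limma adjusted p = 0.128, 0.0655, 0.063 and 0.112). In FR3 it was lost without WT FR3 replicate 1 or pifq FR3 replicate 2 or 3 (0.108, 0.0951 and 0.0838). A fit to the compared arrays alone ended the PWD call in WL0, FR3 and WL24 (0.0505, 0.0797 and 0.117). In FR24, DPE1 was higher by 0.57 ± 0.14 and SBE2.2 lower by -0.42 ± 0.09, against 4.47% of probe sets called higher and 3.85% lower. The median of the 8 differences was 0.09, 0.04, 0.0037, 0.05 and 0.14 in WL0, FR1, FR3, FR24 and WL24, beside medians within 0.02 of 0 over all probe sets.

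**Figure D5:**
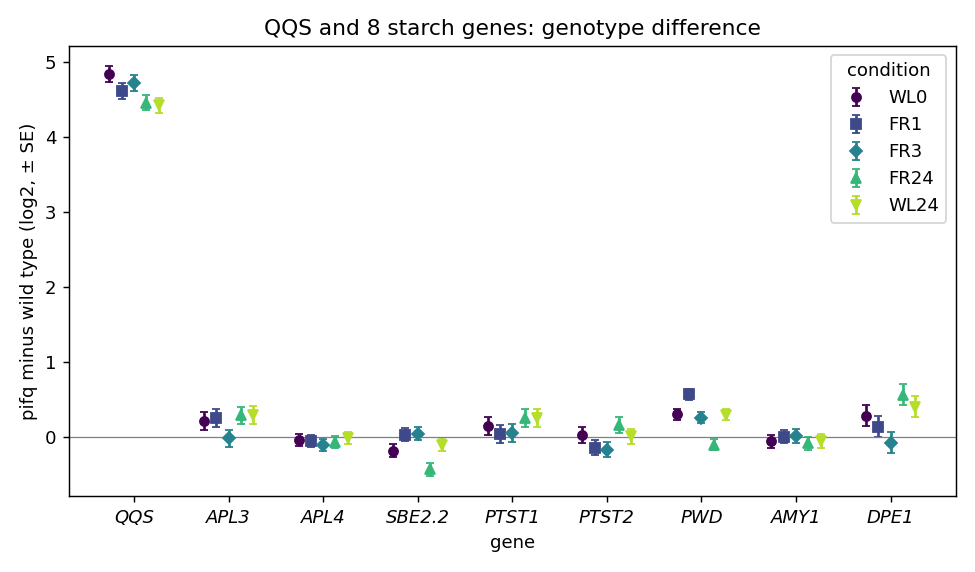
Difference between pifq and the wild type (log2 ± SE) of QQS and of the 8 starch genes with a probe set of their own, in each light condition. QQS lies between 4.42 and 4.84, and the starch genes between -0.42 and 0.58.

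From WL0 to WL24, where QQS was 0.91 and 0.49 higher, APL3, SBE2.2, PTST1, PWD and DPE1 fell in both genotypes. That was 5 of 8 lower and 0 higher in the wild type, against 23.6% and 24.5% of all probe sets, and 5 lower and 1 higher in pifq, against 23.8% and 25.5%. PTST1 fell by 1.20 ± 0.12 in the wild type and by 1.09 ± 0.12 in pifq, and APL3 by 0.95 ± 0.12 and by 0.87 ± 0.12. The sixth call in pifq, APL4 (0.19 ± 0.08), was lost whichever of 5 of the 6 arrays was left out, all but pifq WL24 replicate 2 (limma adjusted p = 0.0527 to 0.206).

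In far-red light PWD fell at 1 h by 0.59 ± 0.07 in the wild type and by 0.32 ± 0.07 in pifq, and at 3 h by 0.76 ± 0.07 and by 0.80 ± 0.07, while QQS was 0.15 to 0.48 higher. At 1 h, 3 of 8 starch genes had fallen in the wild type and 1 in pifq, against 12.5% and 2.89% of probe sets, with 0 risen against 10.7% and 2.94%. At 3 h it was 3 fallen in each genotype, against 18% and 15.3%, with 0 risen against 18.1% and 14.6%. Besides PWD, the wild-type falls at 1 h were APL3 and SBE2.2, and at 3 h SBE2.2 and PTST1. APL3 lost its call without WT WL0 replicate 2 or WT FR1 replicate 2 (limma adjusted p = 0.0539 and 0.0597), and SBE2.2 without WT FR1 replicate 1 (0.159) and, at 3 h, without WT FR3 replicate 2 (0.0513). The 1 h call of SBE2.2 was also lost in a fit to the compared arrays alone (0.0732). PTST1 lost its call without WT WL0 replicate 2 or 3 or WT FR3 replicate 2 or 3 (0.086, 0.13, 0.0718 and 0.0684). At 24 h PWD was the single gene called, higher than in WL24 by 0.88 ± 0.07 in the wild type and 0.49 ± 0.07 in pifq, against 11.6% and 7.6% called higher and 11.6% and 7.25% lower. The genotypes differed in this PWD response by -0.40, 1 of 8 starch genes called lower and 0 higher, against 1.53% and 2.22% of probe sets. That call was lost without any one of 6 of the 12 arrays, WT FR24 replicate 2 or 3, WT WL24 replicate 2, pifq FR24 replicate 3 and pifq WL24 replicate 1 or 3 (limma adjusted p = 0.0531 to 0.0646), and in a fit to the compared arrays alone (0.107). The root hair marker EXPA7 moved beside PWD in the wild type, by -0.60 at 1 h, -1.02 at 3 h and 0.85 at 24 h, and in pifq by -0.19 (not called), -0.78 and 0.29, and its part in the starch gene values was not tested. QQS differed between FR24 and WL24 by -0.13 and -0.09.

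In the RefSeq gene table (assembly TAIR10.1), the 10 annotated loci nearest to QQS, 5 on each side, were 7 pseudogenes, 2 protein-coding genes and 1 lncRNA. Of these, 1 had a probe set of its own here, the protein-coding AT3G30730. Its group means lay between 2.82 and 3.09, near the lowest value of the table, 2.42, so its values say little about expression of this neighbour. AT3G30730 was called higher in pifq in FR24 by 0.27 ± 0.08, a call lost without replicate 1 or 3 of either genotype (limma adjusted p = 0.0729 and 0.14 for the wild type, 0.212 and 0.0561 for pifq), and not in the other 4 conditions, where it differed by -0.11 to 0.13. Of 23 listed DNA methylation genes, the demethylase gene DME alone had probe sets of its own. It had 3, of which only the brightest was read. On that probe set DME differed between the genotypes by -0.18 to 0.18 and was not called in any of the 5 conditions (limma adjusted p = 0.422 to 0.888). In those conditions 1.24% to 7.08% of all probe sets were called higher and 0.431% to 6.56% lower. From WL0 to WL24 DME fell by 0.50 ± 0.13 in the wild type and by 0.55 ± 0.13 in pifq. Of all probe sets, 23.6% and 23.8% were called lower there. The NF-YC, nitrogen assimilation and sugar starvation lists, of 5, 13 and 9 genes, had 0 probe sets of their own in the annotation used here.

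Markers of green tissue, root hairs and stomata were read to check the whole-seedling label, and 5 of 16 listed markers had a probe set of their own. Group means were 13.71 to 13.96 for RCA, which encodes Rubisco activase, 5.96 to 8.17 for EXPA7 and 6.61 to 8.62 for EXPA18, expansin genes of root hairs, and 4.85 to 5.64 for SPCH and 4.67 to 5.05 for FAMA, regulators of stomatal development. The endodermis, root tip, phloem, shoot meristem and seed storage markers had 0 such probe sets. Between WL0 and WL24, over which QQS was higher at the later age, EXPA7 fell by 2.14 in the wild type and by 1.72 in pifq, EXPA18 fell by 1.85 and by 1.60, and SPCH fell by 0.63 in the wild type and differed by -0.23 in pifq, which was not called. RCA and FAMA were not called in either. Of all probe sets, 23.6% were called lower and 24.5% higher there in the wild type, and 23.8% and 25.5% in pifq. In far-red light EXPA18 followed EXPA7, falling in the wild type by 0.42 at 1 h and by 0.97 at 3 h and standing 0.67 above WL24 at 24 h, and in pifq it differed by -0.13 (not called), -0.70 and 0.38. SPCH fell by 0.39 and by 0.54 at 1 h and 3 h in the wild type and stood below WL24 at 24 h in pifq, by -0.43, and RCA was 0.19 higher at 24 h in the wild type. FAMA was not called in far-red light. Called lower in the wild type at 1 h, 3 h and 24 h were 12.5%, 18% and 11.6% of all probe sets. Called higher there were 10.7%, 18.1% and 11.6%. In pifq the shares were 2.89%, 15.3% and 7.25% for lower and 2.94%, 14.6% and 7.6% for higher. Between the genotypes, EXPA7 and EXPA18 were higher in pifq at FR1, FR3 and WL24, by 0.31 to 0.49, SPCH was higher at FR3 and WL24, by 0.36 in each, FAMA was lower at FR1 by -0.34, and RCA was not called in any condition. None of the 5 markers was called between the genotypes at WL0 or FR24. Over the whole array, calls of higher in pifq made up 1.24% of probe sets at WL0 and 4.47% at FR24. Calls of lower made up 0.431% and 3.85%. With shares this small, 0 calls among 5 markers says little. At FR1, FR3 and WL24 the shares were 7.08%, 5.47% and 4.3% for higher and 6.56%, 4.47% and 4.3% for lower. The part of these tissues in the genotype difference of QQS, or in its change between ages or in far-red light, was not tested.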

How the data were processed

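Whole-seedling RNA was measured on 1-colour Affymetrix arrays. The deposited values are log2 expression values that the authors computed with RMA (version not given in the sources used here), per the submitters' processing notes. RMA equalises the distributions of the arrays and shrinks folds at both ends of the signal range, which can make the QQS folds too small. The table held 22810 probe sets, of which 64 controls were left out and the rest were tested without a filter. Scanner files, scan dates and batches were not used here.

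Probe sets were named through the platform annotation and the RefSeq table (TAIR10.1). Exactly 1 locus was given for 13436, several genes for 503 and none for 8730. Most listed genes had no probe set of their own in this annotation. They may lie under probe sets without a gene, which was not tested. Where a gene had several, the brightest on average was used.

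A limma 3.58.1 model (lmFit, eBayes; R 4.3.3) with a mean for each group was run on the 30 arrays, with 20 residual and 9.44 prior degrees of freedom, for 17 comparisons. Two-sided p-values were Benjamini-Hochberg adjusted over 22746 probe sets. The fit was tested on simulated data. Named genes were QQS, the 5 most and 3 least correlated named probe sets over arrays, the 5 most correlated over deviations from group means, starch list members, neighbours, and up to 4 called members of other lists. The gene, the lists and the tests were chosen with earlier results of these data known. Alternatives covered scaling, weights, filters, controls, the replicate number and each array left out. Same-numbered replicates deviated together, with all 3 correlations over 0.1, in 1 of 13 comparisons, pifq FR1 against WL0 (0.117 to 0.284), and blocking changed no call there.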

Additional observations from a re-analysis of the deposited data

Results flagged for a closer look

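The 24 h far-red response of PWD, the phosphoglucan water dikinase gene, differed between the genotypes by -0.40 (pifq minus wild type; limma adjusted p = 0.0242), where 1.53% of probe sets were called lower. PWD responded by 0.88 in the wild type and 0.49 in pifq. Leaving out WT FR24 replicate 2 or 3, WT WL24 replicate 2, pifq FR24 replicate 3, or pifq WL24 replicate 1 or 3 ended the call (limma adjusted p = 0.0531 to 0.0646), as did a fit to the compared arrays alone (0.107).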

How the results depend on the processing

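The difference of QQS between pifq and the wild type lay between 4.35 and 4.96 over the 5 conditions and every setting tried, against 4.42 to 4.84 as reported. Of 214 recomputed QQS differences, 210 moved by less than the replicate SD pooled over the groups of that comparison. With WL0 as the control of FR24, whose seedlings are 24 h older, the 24 h differences became 0.78 in the wild type, 0.40 in pifq and -0.38 between the genotypes. Leaving out single arrays gave -0.35 to -0.072 for the genotype difference of the 1 h response. Counts of called starch genes were small and moved with the settings. The share of all probe sets called under each of these settings is not given. The counts below therefore cannot be set against the array as a whole. Array weights gave 3 in pifq at FR1 and 2 between the genotypes in FR1 and in WL24. An intensity trend, and a mean log2 value of at least 5, each gave 2 in pifq at FR1 and 2 between the genotypes in WL24. A call that also needed 1.5-fold gave 1, 1 and 3 in the wild type at FR1, FR3 and WL24 against WL0, and 0, 1, 0 and 3 in pifq at FR1, FR3, FR24 and WL24. It gave 0 between the genotypes in all 5 conditions and 0 for the difference of 24 h responses. With only the arrays compared, the counts were 5 in the wild type at FR3, 2 in pifq at FR1, and 0 between the genotypes in WL0, FR3 and WL24 and for the 24 h responses. Without single arrays the counts ran from 0 to 1 between the genotypes in WL0 and FR3 and for the 24 h responses, 1 to 2 in WL24, 1 to 4 in the wild type at FR3, 1 to 2 at FR24 and 1 to 2 in pifq at FR1. The cause was not tested.

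With the replicate number as a block, QQS kept its differences by construction (4.84 in WL0), and the starch count changed in 1 comparison, from 6 to 5 in pifq from WL0 to WL24, where APL4 had an adjusted p of 0.0554. Outside pifq FR1 against WL0 the correlations of same-numbered deviations were not all over 0.1 in any comparison. The lowest was -0.179, and in pifq FR3 against WL0 they were 0.173, 0.086 and 0.144. Over the 13 comparisons 31 of 78 arrays correlated best with the array of their own number. Each group held 3 arrays, so about 1 in 3 would do so without pairing, and no test of this count was made.

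Spearman's rho with QQS over 30 arrays was 0.778 for LEA, 0.783 for ATOEP16-2, 0.758 for AT1G65090, 0.725 for PAP85, 0.71 for AT3G19920, -0.843 for AT1G12070 and -0.592 for AT3G49210. Within the 15 wild-type arrays r was 0.50, 0.49, -0.048, 0.252 and 0.488 for the first 5, in that order, and within the 15 pifq arrays -0.0764, -0.116, 0.112, -0.121 and -0.765. For NRPB9A it was -0.567 and -0.122, for AT3G49210 -0.0751 and 0.209, and for AT1G12070 -0.477 and -0.779, so AT1G12070 kept its negative r within pifq. The rho of NRPB9A was -0.829.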

Other observations

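Between replicates of a group, the named probe sets whose deviations from the group mean followed those of QQS most closely over 30 arrays were AT2G14930 (r = 0.739), AT1G22830 (0.732), AT4G26860 (0.697), AT2G40250 (0.697) and AT3G19900 (0.691). They were picked as the highest of all named probe sets and are given as values. Group means lay between 2.96 and 3.30 for AT2G14930, 3.56 and 3.81 for AT1G22830, and 3.55 and 3.92 for AT2G40250. These are low beside array medians of 5.55 to 5.64, so the values of AT2G14930, AT1G22830 and AT2G40250 say little about expression.

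The condition-to-condition pattern of QQS was shared by many probe sets once each genotype was taken alone. Over 15 arrays each, 661 of 22745 other probe sets (2.91%) had r over 0.8 with QQS in both genotypes and 1003 (4.41%) had r under -0.8. At limits of 0.9 and -0.9 there were 11 and 11.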
